A study of Mus musculus with 14 samples.

Results

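The NRF2 pathway was followed in mouse liver through 10 genes, which were listed by name and not by any measured value: Nfe2l2, Keap1, Nqo1, Gclc, Gclm, Hmox1, Txnrd1, Srxn1, Cbr3 and Aox1. All 10 were found among the 24970 genes with a count in at least 1 library, and all 10 passed the filter on low counts, which left 13127 genes. Livers came from mice on a high-fat diet that carried silk scaffolds. In the transplant group (n = 6, titled iBAT 2x) the scaffold held differentiated pre-adipocytes of the stromal fraction of brown fat, and in the empty scaffold group (n = 8, titled Sham-WT) it held no cells. The sources used here do not give the strain, sex or age of the recipients, what 2x stands for or whether each library is a separate animal. The p-values therefore measure the spread between libraries, which may be technical in part. Libraries held 22898793 to 28910968 estimated counts in the transplant group and 19482580 to 28723928 in the empty scaffold group. The hepatocyte genes taken as a check of the tissue (Alb, Ttr, Apoa1, Apoc3, Serpina1a, Fgb, Tat and Cps1) summed to 88700 to 137000 CPM (counts scaled to a common library size) in transplant livers and 74300 to 138000 CPM in empty scaffold livers.

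NRF2, the transcription factor encoded by Nfe2l2, is held at a low level by KEAP1, an adaptor that brings it to a ubiquitin ligase. Oxidants and electrophiles modify cysteines of KEAP1, NRF2 then accumulates, pairs with a small MAF protein and binds antioxidant response elements in DNA. Its targets make glutathione, reduce thioredoxin and peroxiredoxins, and detoxify quinones, carbonyls and heme. In liver the pathway is known for its response to drugs and dietary electrophiles, and much of its control lies in the stability of the protein, which RNA sequencing does not measure.

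Windows of 300 bases around an annotated start site, most of them upstream of it, were read from RefSeq on GRCm38.p6 for 8 of the 10 genes, 10 windows in all (3 of them for Txnrd1); Gclc and Hmox1 are named only. Both strands were searched for TGACNNNGC, the core letters of the antioxidant response element, and for TGANTCAGC, the letters that NRF2 with a small MAF protein favours; a single stretch can meet both, which none of the matches here did. Of all 32851 windows in the RefSeq table, 12.4% held the first motif, 1.19% the second and 13.0% either. A match was found in 4 of the 10 windows, those of Nfe2l2, Srxn1, Gclm and one of Txnrd1. Srxn1 held the only TGANTCAGC match, at position -45 counted from the start site, and a TGACNNNGC match on the other strand at position 28. The Nfe2l2 match lay at position -240. The windows of Srxn1, Nfe2l2 and Gclm are shown because they hold matches, and that of Cbr3, the gene with the largest fold change of the 10, because it holds none; capitals mark the matches, and a match on the other strand stands as its reverse complement. In order, they are chr2:152105274-152105573 on the plus strand, chr2:75704614-75704913 on the minus strand, chr3:122245307-122245606 on the plus strand and chr16:93682969-93683268 on the plus strand. A match describes the letters of the window, and windows without a match say nothing of elements farther away.
Srxn1: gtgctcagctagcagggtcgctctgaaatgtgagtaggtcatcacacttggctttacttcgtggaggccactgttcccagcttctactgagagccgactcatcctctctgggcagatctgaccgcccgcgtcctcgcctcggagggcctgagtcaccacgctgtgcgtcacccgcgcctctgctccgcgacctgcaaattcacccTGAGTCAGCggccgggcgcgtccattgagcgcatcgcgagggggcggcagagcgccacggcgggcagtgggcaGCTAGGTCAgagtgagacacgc
Nfe2l2: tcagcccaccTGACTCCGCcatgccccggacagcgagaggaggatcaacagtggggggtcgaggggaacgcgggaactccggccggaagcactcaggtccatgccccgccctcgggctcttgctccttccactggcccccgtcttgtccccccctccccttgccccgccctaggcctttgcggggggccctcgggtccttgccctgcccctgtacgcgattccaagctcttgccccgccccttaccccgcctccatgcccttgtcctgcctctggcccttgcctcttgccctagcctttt
Gclm: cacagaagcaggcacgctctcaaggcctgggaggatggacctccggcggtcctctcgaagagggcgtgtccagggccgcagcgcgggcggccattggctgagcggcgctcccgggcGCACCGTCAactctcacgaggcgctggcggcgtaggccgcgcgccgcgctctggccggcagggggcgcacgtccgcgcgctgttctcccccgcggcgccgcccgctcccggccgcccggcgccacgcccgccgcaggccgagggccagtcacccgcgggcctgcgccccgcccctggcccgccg
Cbr3: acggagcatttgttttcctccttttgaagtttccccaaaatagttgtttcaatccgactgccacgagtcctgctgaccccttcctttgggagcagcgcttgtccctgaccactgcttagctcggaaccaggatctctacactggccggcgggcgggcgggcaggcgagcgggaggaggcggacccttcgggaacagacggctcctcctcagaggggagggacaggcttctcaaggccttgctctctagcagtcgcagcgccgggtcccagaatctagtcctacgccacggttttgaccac

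Hmox1, Gclc and Cbr3 fell in the livers of transplant recipients, and none of the 10 genes rose. Hmox1 stood at 0.590 times, Gclc at 0.721 times and Cbr3 at 0.308 times its level in empty scaffold livers. The other 7 were not called by the quasi-likelihood test of edgeR (adjusted p under 0.05), although 9 of the 10 had a negative log2 fold change (transplant minus empty scaffold) and 6 of the 10 had an unadjusted p under 0.05. Of all tested genes, 7.54% were called in either direction, 4.23% as lower and 3.31% as higher, and 30% had an unadjusted p under 0.05. A negative log2 fold change was found for 6947 of all 13127 tested genes. The median log2 fold change was -0.31 over the 10 genes and -0.02 over all tested genes. The CPM ranges of the groups overlapped for each of the 10, while 1.27% of all tested genes had ranges that did not. The calls, more than the fold changes, depended on single libraries. Without transplant replicate 1 the edgeR adjusted p was 0.0797 for Hmox1, 0.0840 for Gclc and 0.0958 for Cbr3. Their log2 fold changes were then -0.74, -0.43 and -1.69, against -0.76, -0.47 and -1.70 with all libraries. That fit called 138 genes of the whole table, against 990 with all libraries. With trends of transcript length and GC content removed from each library, Hmox1 and Cbr3 were called lower and none of the 10 higher, where 4.7% of all genes were called, 1.96% as lower and 2.74% as higher.

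**Figure D1:**
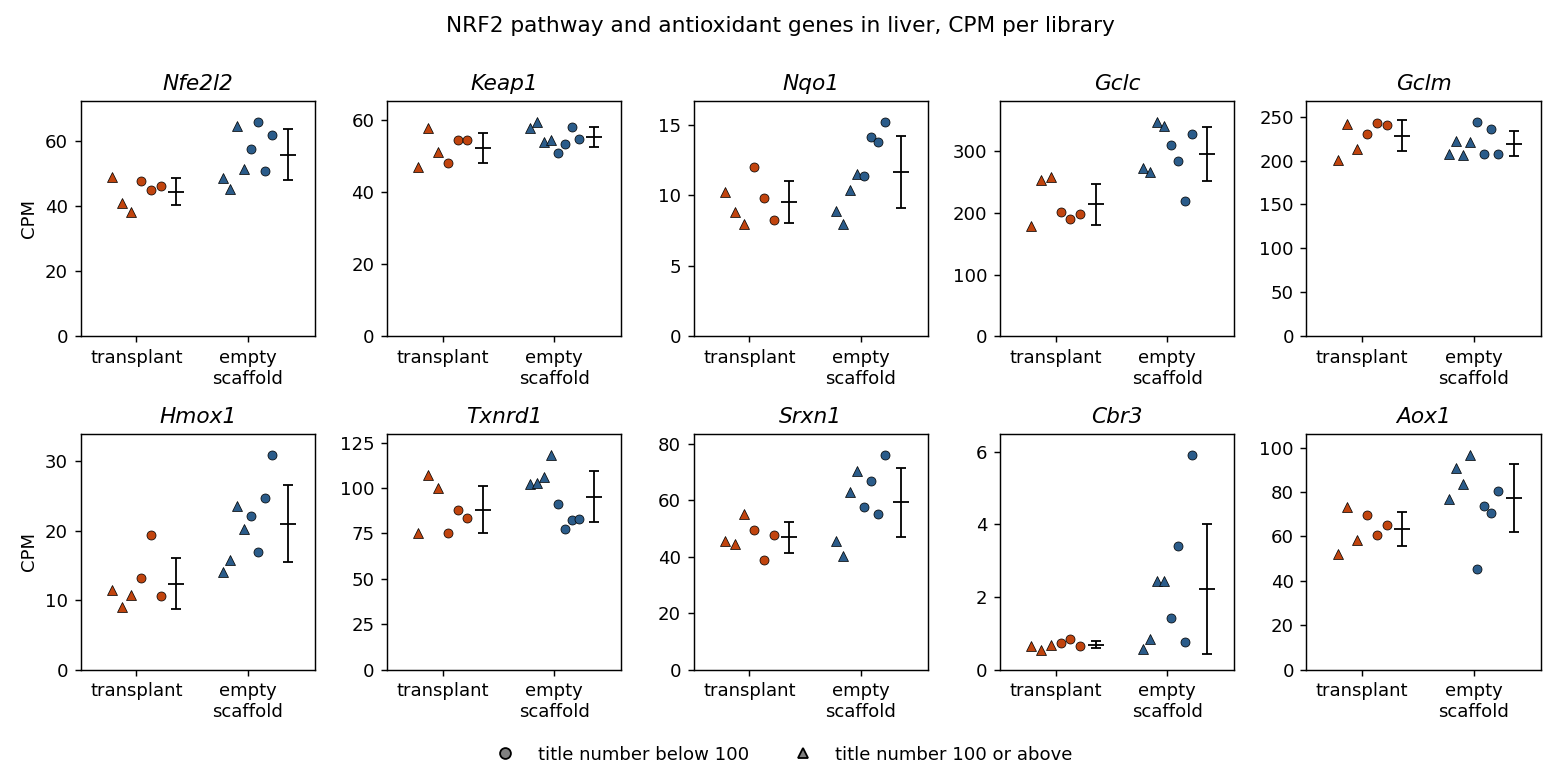
CPM of the 10 genes (vertical axes, each from 0) in every library of the transplant group (left, orange, n = 6) and the empty scaffold group (right, blue, n = 8); circles are libraries titled with a number below 100, triangles those titled 100 or above, and the bars give mean ± SD. All 6 transplant libraries lie below the empty scaffold median for Nfe2l2, Gclc, Hmox1, Srxn1, Cbr3 and Aox1, and the groups overlap in each panel.

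Neither regulator was called. Nfe2l2 (ENSMUSG00000015839) had a lowest, median and highest level of 38.2, 45.7 and 48.9 CPM in transplant livers, against 45.3, 54.6 and 66.0 CPM in empty scaffold livers. All 6 transplant libraries lay below the empty scaffold median, and 3 lay below its lowest library. The log2 fold change was -0.33 ± 0.10 (SE), which narrowly missed the threshold (edgeR adjusted p = 0.0554). Nfe2l2 was called in 3 alternatives, each of which called more of the whole table than the 990 genes of the main edgeR fit. These were the DESeq2 Wald test (adjusted p = 0.0335, 1965 genes called) and edgeR with the range of the title numbers as a covariate (adjusted p = 0.0263, 2580 genes called). The last was edgeR without empty scaffold replicate 7 (adjusted p = 0.0409, 1908 genes called). Keap1 (ENSMUSG00000003308) stood at 52.2 ± 4.16 CPM in transplant livers and 55.3 ± 2.84 CPM in empty scaffold livers, a log2 fold change of -0.09 ± 0.07 that did not pass (adjusted p = 0.452). Removal of the length and GC trends turned the sign of Keap1, to 0.15 (adjusted p = 0.166).

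Nfe2l2 is annotated with a coding transcript, Nfe2l2-201, and a non-coding one, Nfe2l2-202. The non-coding transcript made up 14.6 ± 1.75% of the Nfe2l2 TPM in transplant livers (range 12.0% to 16.4%) and 11.7 ± 0.736% in empty scaffold livers (10.6% to 12.8%). The ranges overlap, and the difference was not tested. For Keap1 the deposited estimates placed 58.5 ± 5.10% of the TPM on Keap1-205 in transplant livers and 58.0 ± 10.9% in empty scaffold livers, and most of the rest on Keap1-201.

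Partners and regulators of NRF2 showed no called gene among 11 tested by edgeR. Of the 11, 3 had an unadjusted p under 0.05, as had 30% of all tested genes. DESeq2 called 2 of them, and 1965 of all 13127 genes. The list had a median log2 fold change of -0.12. The member with the smallest adjusted p was Rbx1, the RING subunit of the ubiquitin ligase that KEAP1 serves, at 41.5 ± 5.36 CPM in transplant livers and 32.7 ± 4.64 CPM in empty scaffold livers (log2 fold change 0.35 ± 0.11, adjusted p = 0.0535).

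Glutathione synthesis begins with glutamate-cysteine ligase, of which Gclc encodes the catalytic subunit and Gclm the modifier subunit. Gclc (ENSMUSG00000032350) had a lowest, median and highest level of 178.7, 200.3 and 259.1 CPM in transplant livers, against 218.5, 297.9 and 348.1 CPM in empty scaffold livers. All 6 transplant libraries lay below the empty scaffold median and 4 lay below its lowest library, which was replicate 7. The log2 fold change was -0.47 ± 0.12 (edgeR adjusted p = 0.0347). After removal of those trends Gclc stood at -0.31 and was not called (adjusted p = 0.0532). Gclm (ENSMUSG00000028124) stood at 228 ± 17.6 CPM in transplant livers and 219 ± 14.5 CPM in empty scaffold livers, a log2 fold change of 0.06 ± 0.08 (adjusted p = 0.636) that turned to -0.01 with those trends removed.

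The subunits can also be set against each other within a library. There were 0.940 ± 0.163 Gclc counts per Gclm count in transplant livers (SD, n = 6; range 0.786 to 1.22) and 1.36 ± 0.244 in empty scaffold livers (SD, n = 8; range 0.925 to 1.69). The ranges overlap, and the mean log2 ratio differed by -0.53 (two-sided exact permutation p = 0.00533, a test chosen after it was seen that one subunit was called and the other not). Library scaling is taken out, but trends with length and GC content are not: without them the difference was -0.30 (exact permutation p = 0.0306), and with effective lengths as an offset it was -0.61 (exact permutation p = 0.016). Leaving out any 1 library gave -0.61 to -0.48 with exact p-values of 0.00233 to 0.0124. Within the libraries titled below 100 the difference was -0.61 (exact permutation p = 0.0571, the smallest that 3 against 4 allow), and within those titled 100 or above it was -0.45 (exact permutation p = 0.114). Of the Gclm sequence, 5.61% of all 31-base stretches also occur in other genes, Ppia and its copies first among them.

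Thioredoxin reductase and sulfiredoxin keep the thiol peroxidases working. Txnrd1 (ENSMUSG00000020250), the cytosolic thioredoxin reductase, stood at 88.2 ± 13.1 CPM in transplant livers and 95.2 ± 14.1 CPM in empty scaffold livers (log2 fold change -0.11 ± 0.11, adjusted p = 0.527), and its sign turned to 0.04 with length and GC trends removed. Srxn1 (ENSMUSG00000032802), which repairs over-oxidised peroxiredoxins, had a lowest, median and highest level of 38.7, 46.7 and 55.2 CPM in transplant livers, against 40.2, 60.1 and 75.8 CPM in empty scaffold livers. All 6 transplant libraries lay below the empty scaffold median, but empty scaffold replicates 1, 2 and 7 (45.6, 40.2 and 54.9 CPM) lay among them. The log2 fold change was -0.34 ± 0.13 and did not pass (adjusted p = 0.103).

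Msrb1 and Prdx4 rose among the other antioxidant enzymes. Of 20 tested, 2 were higher and none lower by edgeR, where 3.31% of all tested genes were higher and 4.23% lower. Of the 20, 17 had a positive log2 fold change, as had 6180 of all 13127 tested genes, and the median of the 20 was 0.26. Msrb1, a selenoprotein that repairs oxidised methionine, stood at 494 ± 55.3 CPM in transplant livers and 359 ± 59.3 CPM in empty scaffold livers (log2 fold change 0.46 ± 0.12, adjusted p = 0.0325). Prdx4, the peroxiredoxin of the endoplasmic reticulum, stood at 81.3 ± 9.38 CPM in transplant livers and 55.4 ± 13.7 CPM in empty scaffold livers (0.55 ± 0.14, adjusted p = 0.0347). Without the length and GC trends the median of the list was 0.13, Prdx4 was still called (0.35, adjusted p = 0.0482) and Msrb1 was not (0.27, adjusted p = 0.0800). Of the 8 hepatocyte genes none was called by edgeR, and 3 had an unadjusted p under 0.05, as had 30% of all tested genes. DESeq2 called 1 of the 8, and 1965 of all 13127 genes. The 8 had a median of 0.26 as well, and their part in the values of this list was not tested.

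Among the detoxifying oxidoreductases, Cbr3 fell and Nqo1 and Aox1 did not pass. Cbr3 (ENSMUSG00000022947), a carbonyl reductase, was the lowest of the 10 genes, with 13 to 19 counts in each transplant library and 13 to 149 in each empty scaffold library. In CPM its lowest, median and highest levels were 0.531, 0.673 and 0.830 in transplant livers, against 0.573, 1.93 and 5.90 in empty scaffold livers. The transplant libraries lay close together, while the empty scaffold libraries spread over 0.573, 0.769, 0.845, 1.43, 2.44, 2.45, 3.41 and 5.90 CPM. The first 2 of these lie within the transplant range, and the third lies just above it. The log2 fold change was -1.70 ± 0.46 (edgeR adjusted p = 0.0387), and it was not called without a filter on low counts (adjusted p = 0.0776) or with effective lengths as an offset (adjusted p = 0.0573). Cbr3 shares 2.31% of its 31-base stretches with its close relative Cbr1, which stood at 79.5 ± 14.6 CPM in transplant livers and 74.3 ± 27.3 CPM in empty scaffold livers.

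Nqo1 (ENSMUSG00000003849), the quinone reductase that is the usual readout of NRF2 activity, had a lowest, median and highest level of 7.97, 9.30 and 12.0 CPM in transplant livers, against 7.96, 11.4 and 15.2 CPM in empty scaffold livers. The transplant libraries lay within the empty scaffold range, and 1 of the 6 lay above its median. The log2 fold change was -0.29 ± 0.15 (adjusted p = 0.195). Aox1 (ENSMUSG00000063558), a molybdenum-containing aldehyde oxidase, had a lowest, median and highest level of 52.2, 63.0 and 73.2 CPM in transplant livers, against 45.5, 78.8 and 96.5 CPM in empty scaffold livers. Empty scaffold replicate 5 was the lowest library of all for Aox1, and without it Aox1 was called (log2 fold change -0.37, edgeR adjusted p = 0.0327). That fit called 1568 genes of the whole table, against 990 with all libraries. Over all libraries Aox1 stood at -0.29 ± 0.14 (adjusted p = 0.162), and at -0.04 without the length and GC trends. Its relative Aox3, an aldehyde oxidase of mouse liver, stood at 349 ± 69.3 CPM in transplant livers and 360 ± 84.9 CPM in empty scaffold livers. Among 7 molybdenum enzymes and cofactor genes Mocs2, a molybdopterin synthase gene, was the 1 called (0.41 ± 0.11, edgeR adjusted p = 0.0401), where 7.54% of all tested genes were. Without the length and GC trends Mocs2 was not called (0.18, edgeR adjusted p = 0.0999). The 7 had a median of 0.01.

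Of 26 other NRF2 target genes tested, 2 were lower and none higher, where 4.23% of all tested genes were lower and 3.31% higher. The 26 had 12 positive and 14 negative log2 fold changes and a median of -0.06. G6pdx, which opens the pentose phosphate pathway and makes NADPH, stood at 1.76 ± 0.427 CPM in transplant livers and 3.24 ± 0.828 CPM in empty scaffold livers (-0.87 ± 0.20, adjusted p = 0.0243). Ugdh, which makes UDP-glucuronate, stood at 112 ± 14.8 CPM in transplant livers and 149 ± 21.1 CPM in empty scaffold livers (-0.42 ± 0.11, adjusted p = 0.0375). Without the length and GC trends G6pdx was still called and Ugdh was not (adjusted p = 0.0520). Over all 6 lists of pathway genes outside the 10, 3 of 80 tested genes were higher and 3 lower, against 3.31% higher and 4.23% lower of all tested genes. Without transplant replicate 1 none of the 80 was called by edgeR, and without transplant replicate 5 or empty scaffold replicate 3 only 1 was.

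Hmox1 had the smallest p of the 10 genes. Hmox1 (ENSMUSG00000005413) encodes the inducible heme oxygenase, which in liver is abundant in Kupffer cells, the resident macrophages that clear old red cells. Its lowest, median and highest levels were 9.02, 11.1 and 19.3 CPM in transplant livers, against 14.1, 21.1 and 30.8 CPM in empty scaffold livers. All 6 transplant libraries lay below the empty scaffold median and 5 lay below its lowest library; replicate 5 was the exception. The log2 fold change was -0.76 ± 0.19 (edgeR adjusted p = 0.0302), and -0.81 without the length and GC trends (adjusted p = 0.0275).

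Some of the markers listed for Kupffer cells were called lower, as Hmox1 was, but Clec4f, Vsig4, Marco and Timd4 were not. Of 11 markers 5 were lower by edgeR (Cd5l, Csf1r, Cd68, C1qb and C1qc) and none higher, where 4.23% of all tested genes were lower. All 11 had a negative log2 fold change, as had 6947 of all 13127 tested genes, and the median of the 11 was -0.66. Their summed level ranged from 156 to 234 CPM in transplant livers and from 198 to 469 CPM in empty scaffold livers, and none of the 11 was at 0 in every library. Clec4f, which defines Kupffer cells, stood at -0.43 and did not pass (edgeR adjusted p = 0.111). Nor did Vsig4 (-0.51, edgeR adjusted p = 0.174), Marco (-0.79, 0.282), Timd4 (-0.27, 0.529), Adgre1 (-0.92, 0.0509) and C1qa (-0.51, 0.116). In bulk tissue fewer cells of a type and less RNA per cell cannot be told apart, and the part of these markers in the Hmox1 result was not tested. Within the groups the libraries ranked much alike in both measures. Transplant replicates 4 and 5 were the highest of their group in summed markers (234 and 223 CPM) and in Hmox1 (13.2 and 19.3 CPM), and replicate 2 was the lowest in both (156 and 9.02 CPM). Empty scaffold replicates 1, 2 and 6 were the lowest of theirs in both, while replicate 5 was the highest in markers (469 CPM) and replicate 8 in Hmox1 (30.8 CPM). Of 6 endothelial markers 2 were lower by edgeR (Stab2 and Cdh5), and of 6 stellate cell markers 2 were lower (Col3a1 and Lrat). DESeq2 called 6 of the 11 Kupffer cell markers, 2 of the endothelial and 5 of the stellate cell markers, and 1965 of all 13127 genes. Without the length and GC trends 6 of the 11 Kupffer cell markers were called lower, where 1.96% of all genes were. None of the endothelial markers (median -0.23, against -0.43) or stellate cell markers (median -0.39, against -0.65) was called in that fit. None of 5 bile duct markers was called by edgeR or DESeq2 or had an unadjusted p under 0.05, and 1 of 2 tested neutrophil markers, Csf3r, was lower but not without those trends (adjusted p = 0.0705).

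**Figure D2:**
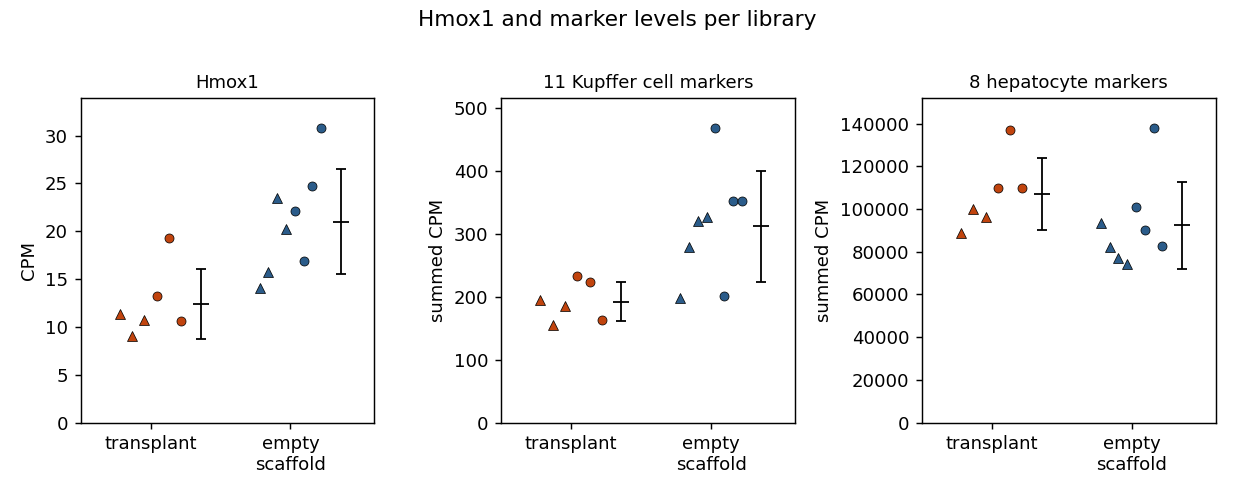
Hmox1 CPM (left), summed CPM of 11 Kupffer cell markers (middle) and summed CPM of 8 hepatocyte markers (right) in each transplant library (left in each panel, n = 6) and empty scaffold library (right in each panel, n = 8), with mean ± SD; circles are libraries titled below 100 and triangles those titled 100 or above. Hmox1 and the Kupffer cell markers are lower in most transplant libraries, with overlap, and the hepatocyte markers overlap widely.

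The phagocyte NADPH oxidase, which makes superoxide in macrophages and neutrophils, had 1 of 6 genes called by edgeR, where 7.54% of all tested genes were. Cybb, its catalytic subunit, stood at 6.37 ± 1.36 CPM in transplant livers and 12.7 ± 4.15 CPM in empty scaffold livers (0.5 times the level, edgeR adjusted p = 0.0175). All 6 genes had a negative log2 fold change (median -0.57), as had 6947 of all 13127 tested genes. Of the 6, 5 had an unadjusted p under 0.05, as had 30% of all tested genes. Without the length and GC trends 3 of the 6 were called lower (median -0.72), where 1.96% of all genes were. Heme and iron handling apart from Hmox1 had none of 10 genes called by edgeR or by DESeq2 and none with an unadjusted p under 0.05 (median 0.01). Hmox2, the constitutive heme oxygenase, had the smallest adjusted p among them, at 54.0 ± 5.84 CPM in transplant livers and 45.4 ± 8.62 CPM in empty scaffold livers (0.25 ± 0.12, adjusted p = 0.172). Erythroid markers summed to 464 to 2040 CPM in transplant livers and 360 to 1110 CPM in empty scaffold livers.

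The sample titles carry numbers in separate ranges, below 100 and from 100 up, each with 3 transplant and 4 empty scaffold libraries. Within either range, 9 of the 10 genes had a negative log2 fold change. Below 100, Txnrd1 (-0.02 ± 0.11), Keap1 (-0.05 ± 0.10) and Aox1 (-0.05 ± 0.17) among these lay within their SE of 0. Gclc stood at 197 ± 5.61 CPM in transplant livers and 286 ± 48.2 CPM in empty scaffold livers titled below 100. In libraries titled 100 or above it stood at 231 ± 45.0 CPM in transplant livers and 307 ± 43.2 CPM in empty scaffold livers. Hmox1 stood at -0.72 ± 0.23 in the lower range and -0.82 ± 0.19 in the upper one, where it was called (adjusted p = 0.0173). Aox1 stood at -0.05 ± 0.17 and -0.51 ± 0.14 in the lower and upper range, and was called in the upper one (adjusted p = 0.0246). Below 100 none of the 10 was called by edgeR, where 0.0231% of all genes were called (0.0154% higher and 0.00771% lower), and 6 of the 10 had an unadjusted p under 0.05, as had 9.31% of all genes. In the upper range 2 of the 10 were called, where 26% of all genes were (14.5% higher and 11.5% lower), and 4 of the 10 had an unadjusted p under 0.05, as had 41.9% of all genes. A test of the difference itself, the interaction of group and range, called none of the 10 by edgeR or by DESeq2, with none at an unadjusted p under 0.05; of all genes edgeR called 0%, with 17.3% at an unadjusted p under 0.05, and DESeq2 called 185. Aox1 came nearest, at -0.46 ± 0.23 (unadjusted p = 0.0639 from edgeR).

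**Figure D3:**
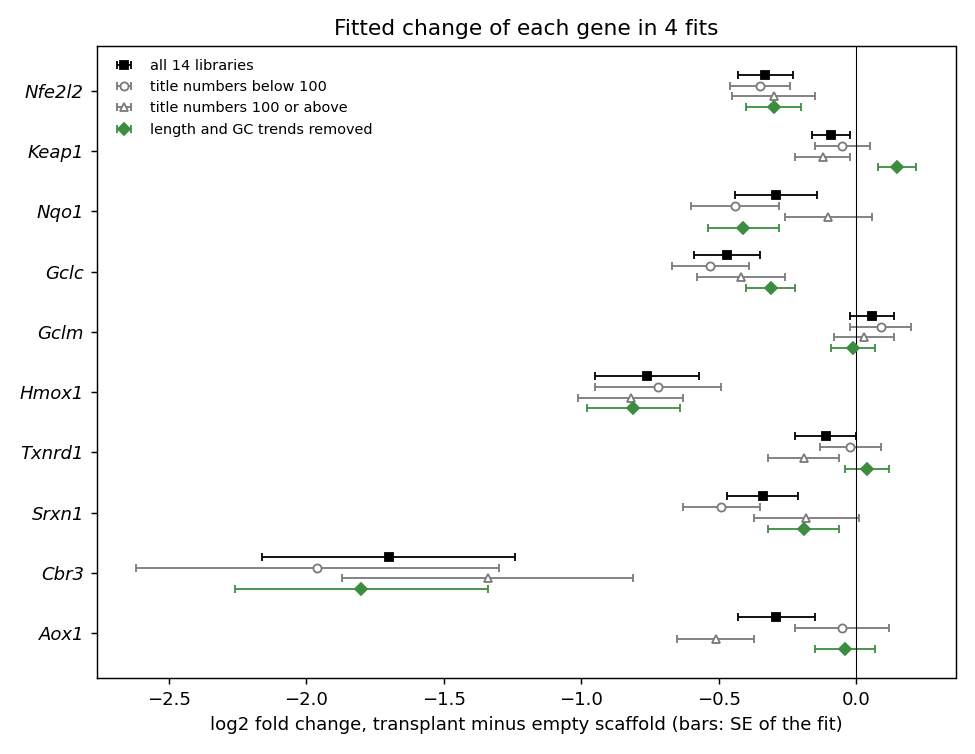
Fitted log2 fold change, transplant minus empty scaffold (horizontal axis, bars are the SE of the fit), of the 10 genes in all 14 libraries (black squares), in libraries titled below 100 (open circles), in those titled 100 or above (open triangles) and with length and GC trends removed (green diamonds). Hmox1, Cbr3, Gclc, Nfe2l2, Nqo1, Srxn1 and Aox1 lie left of 0 in all 4 fits, and Keap1, Gclm and Txnrd1 change side of 0 when the trends are removed.

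Levels between genes were compared in the deposited TPM, which are per length, summed over the transcripts of each gene. By the mean over 14 libraries the order was Gclm (165 TPM), Gclc (95.6), Txnrd1 (30.6), Nfe2l2 (27.9), Srxn1 (20.4), Aox1 (17.4), Keap1 (15.7), Hmox1 (12.0), Nqo1 (7.78) and Cbr3 (1.58). Every pair of neighbours in this order had TPM ranges that overlapped over the libraries. The place of Gclm depends on how the deposited estimates divide it among its transcripts. Gclm-201, the longest (5589 bases), held 15.6 ± 2.47% of its TPM in transplant livers and 16.9 ± 3.10% in empty scaffold livers. Most of the rest lay on Gclm-206 (1002 bases), Gclm-203 (1088 bases) and Gclm-205, a retained intron of 495 bases. The means of Aox1 and Keap1 stood in opposite order in the groups, each time closer together than their SD. Aox1 averaged 12.3 ± 3.47 and Keap1 12.6 ± 3.55 TPM in transplant livers (SD). In empty scaffold livers they averaged 21.2 ± 7.91 and 18.1 ± 4.67 TPM, and their order was not tested. TPM levels were not tested between the groups, since the median log2(TPM + 0.1) over all tested genes was itself shifted in transplant livers, by -0.43.

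**Figure D4:**
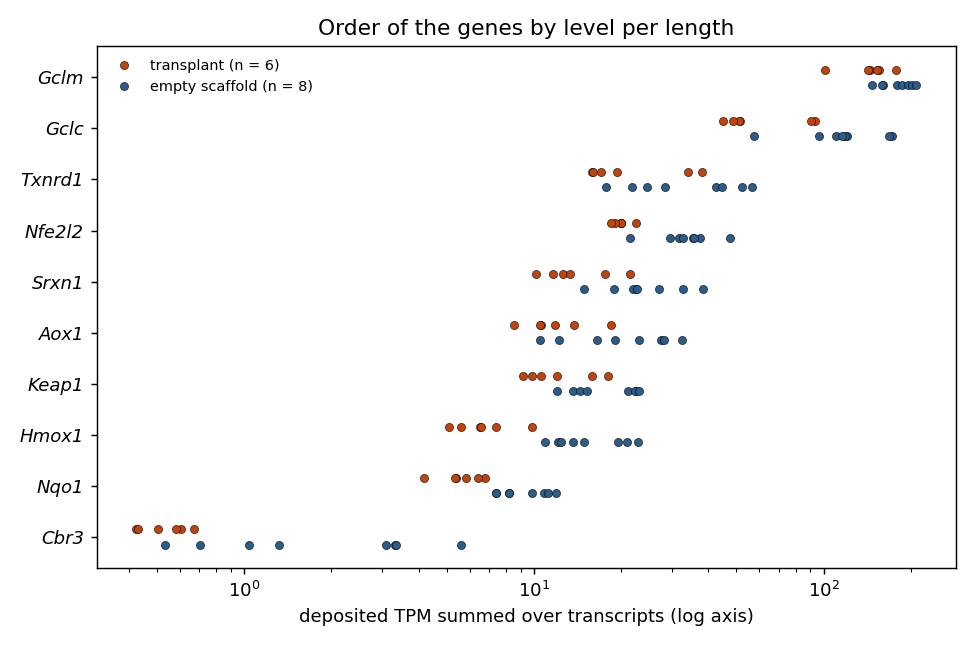
Deposited TPM per library (horizontal axis, log scale) of the 10 genes, ordered from the highest mean (Gclm) to the lowest (Cbr3), with transplant libraries in orange above empty scaffold libraries in blue. Neighbouring genes overlap, and the lower TPM of transplant libraries is shared by genes in general.

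Empty scaffold replicate 8 was the highest of the 8 for Hmox1, Nqo1, Srxn1 and Cbr3. By the number of genes for which it ranked among the highest 3, replicate 8 (6 of 10) differed little from replicates 3 and 4 (5 each) and 2, 6 and 7 (4 each), and replicates 1 and 5 had 1 gene each. Without empty scaffold replicate 3, 4 or 8, or without transplant replicate 1, none of the 10 was called by edgeR, with adjusted p-values of 0.0541 to 0.0797 for Hmox1, 0.0631 to 0.0840 for Gclc and 0.0660 to 0.0958 for Cbr3. In addition Gclc was not called without transplant replicate 5 (adjusted p = 0.0760), Hmox1 without transplant replicate 3 (0.0567), and Cbr3 without any 1 of transplant replicates 2 to 6 (0.0512 to 0.0753). Over all 14 fits that left out 1 library the log2 fold change stayed within -0.93 to -0.66 for Hmox1, -0.53 to -0.43 for Gclc and -1.85 to -1.31 for Cbr3, and the unadjusted p-values from edgeR were at most 0.00269, 0.00326 and 0.00473 for these genes in turn.

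Likeness to the other genes was measured as Pearson's r of log2 CPM over the 14 libraries after each group's mean was taken out, over 11621 genes with a mean of at least 1 CPM; it is a description of libraries that share depth and composition. Most like Nfe2l2 were Hmgb2 (r = 0.921), 6820431F20Rik (r = 0.917) and Gm34934 (r = 0.864), none of them called between the groups. Most like Hmox1 were Treml4 (r = 0.922), Cd300ld (r = 0.890) and Lpl (r = 0.883), of which Cd300ld was called lower (log2 fold change -0.64 ± 0.19, edgeR adjusted p = 0.0467).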

How the data were processed

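Per the labels' protocols, total RNA of liver samples with a RIN above 7 was made into stranded mRNA libraries with 200 ng of RNA as input. Per the submitters' processing notes, fastp 0.20, kallisto 0.46.1, DESeq2 1.38 and the build GRCm39 were used, with no role or order; options, strand setting and annotation release are not given here. The deposited tables hold, per the file headers, the length, effective length, estimated count and TPM of 128803 Ensembl transcripts in each sample, and neither deposited unit is scaled across samples.

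Transcript identifiers were matched to GENCODE M21 (93.6% matched, with 99.4% to 99.5% of the counts), used for names only because it annotates another build. Estimated counts were summed per gene and rounded. Genes were kept by filterByExpr and libraries scaled by TMM. Transplant was compared with empty scaffold by the two-sided quasi-likelihood F test of edgeR 4.0.16 (R 4.3.3), with p-values adjusted by Benjamini-Hochberg over 13127 genes and called under 0.05. DESeq2 1.42.0 was an alternative. Both were run on simulated counts with 200 changed genes, drawn independently for each gene and library. These counts held no length or GC trend, so they cannot show how the tests behave under such trends. For length and GC trends, splines of log2 length and of GC content (natural, 4 degrees of freedom each) were taken out of each library. Promoter sequences come from RefSeq (GRCm38.p6).

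The genes, lists and tests were chosen with earlier results of these data known. Named outside the 10 were, of each pathway list, up to 4 called genes with the smallest adjusted p, or the first where none was called, and the genes most like Nfe2l2 and Hmox1. The marker lists are outside this rule and their called genes are named. The single transcripts, Clec4f and the other uncalled Kupffer cell markers, Cbr1 and Aox3 were added after values were seen. The title numbers of the groups do not interleave within a range, so the group and anything that follows these numbers cannot be told apart.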

Additional observations from a re-analysis of the deposited data

How the results depend on the processing

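The genes called over the whole table numbered 990, against 1965 with the DESeq2 Wald test, 2580 with the number range as a covariate, 3 and 3488 in the libraries titled below 100 and 100 or above alone, 617 with length and GC trends removed (360 higher and 257 lower, against 435 higher and 555 lower) and 315 with effective lengths as an offset. Leaving out 1 library gave 138 to 1908. Of the 10 genes 3 were called, against 0 in the libraries titled below 100 alone and 0 to 4 when 1 library was left out. Of the wider pathway genes 6 were called, against 15 with DESeq2, 24 with the number range as a covariate, 0 and 29 in the libraries titled below 100 and 100 or above alone, 3 with effective lengths as an offset and 0 to 14 when 1 library was left out. The interaction of group and number range called 0 of the 10 genes by edgeR under each left-out library, with 0 of 10 at an unadjusted p under 0.05 in all libraries and 0 by DESeq2. With length and GC trends removed Keap1 (0.15), Gclm (-0.01) and Txnrd1 (0.04) changed sign, and Gclc was no longer called. The log2 fold changes of Hmox1, Cbr3, Gclc, Nfe2l2, Nqo1, Srxn1 and Aox1 kept their sign under all 23 alternatives. The cause of these differences was not tested. No paired analysis was possible because the labels give no replicate numbers that the groups share. The Gclc to Gclm ratio and its alternatives were chosen after seeing the data. Cbr3, at 13 to 19 counts in transplant libraries, is the gene whose precision depth limits most.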
